A study of Mus musculus with 8 samples.

Results

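The tubulin genes and the genes of the enzymes and cofactors that fold, modify and organise tubulin were examined in mouse lung RNA after naphthalene. They were taken by symbol: the α-, β-, γ-, δ- and ε-tubulins with the γ-tubulin complex proteins, the Ttll ligases, the Agbl deglutamylases, the vasohibins, the Tppp proteins and the folding cofactors Tbca to Tbce. This gave 53 genes of 22244 in the count table, of which 44 had enough counts to be tested. RNA came from the right cranial lung lobe of adult male wild-type C57BL/6J mice, 4 injected with naphthalene and 4 labelled as receiving no treatment, with 1 library per mouse. Naphthalene is an aromatic hydrocarbon that airway club cells convert to toxic products, and it is used to injure the airway epithelium. The labels state no dose, vehicle or sampling time, so an effect of the injection itself cannot be told apart from one of naphthalene.

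Microtubules are hollow polymers of α- and β-tubulin pairs, nucleated from rings that contain γ-tubulin. Newly made tubulin passes through prefoldin, the CCT chaperonin and the folding cofactors before it can polymerise. The tails of assembled tubulin then carry a removable code: Ttll enzymes add glutamate or glycine side chains, Agbl carboxypeptidases trim glutamates, and vasohibins remove the last tyrosine. In the lung a prominent place of this code is the motile cilia of airway multiciliated cells, whose axonemes are heavily glutamylated and glycylated.

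The total count was 11233709 to 16792306 in naphthalene libraries and 10743842 to 13518183 in control libraries, and the 53 genes held 0.201% to 0.214% of it after naphthalene and 0.187% to 0.214% in controls. Levels are CPM, counts scaled to a common library size after TMM normalisation, given as mean ± SD over 4 mice or per library in replicate order. A count of 3 in a library, taken as the detection floor, corresponds to 0.179 to 0.275 CPM, and this floor covers counting error only. In pairwise comparison of libraries within a group, the largest chi-square values per degree of freedom were 51.3 for a pair with naphthalene 1 and 18.1 for a pair with control 3. Results were also computed without each of these libraries and without both. The number of calls over all genes differed between fits. The main fit, on all 8 libraries, called 4075 genes, and fits without 1 library called 2929 to 5058. The fit without naphthalene 1 and control 3 called 5349, and limma voom with quality weights called 6503. Calls gained or lost below in such fits are to be read beside these numbers.

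The table lists nearly every chromosome 1 gene at 0, and this touches 3 of the genes. Tuba4a, an α-tubulin gene, Ttll4, a glutamate ligase gene, and Vash2, a vasohibin gene, are listed at 0 in every library. RefSeq places all 3 on chromosome 1, where 1138 of 1150 protein-coding symbols of the table are listed at 0 in all 8 libraries and 0 were tested. On chromosomes 2 to 19 and X the same holds for 1086 of 18745 protein-coding symbols, or 5.79%. The zeros of these 3 genes are therefore not read as an absence of expression, in either group, and why chromosome 1 is listed at 0 was not tested.

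**Figure D1:**
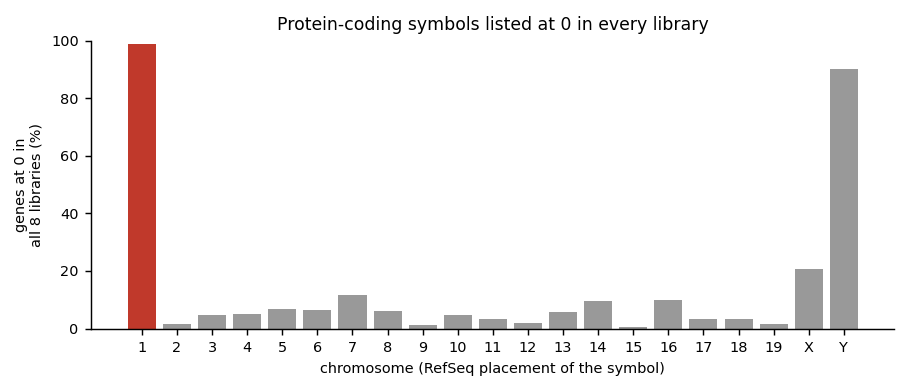
Share of protein-coding gene symbols listed at 0 in all 8 libraries (y axis, percent) for each chromosome on which RefSeq places them (x axis). Chromosome 1 stands at 98.96%, against 5.79% over chromosomes 2 to 19 and X, and the Y chromosome, rich in multicopy genes of the testis, stands at 90.2%.

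Of the 44 tested genes, 9 were higher and 9 were lower in naphthalene lungs (edgeR quasi-likelihood test, Benjamini-Hochberg adjusted over all genes tested, threshold 0.05). This is 40.9% of them, against 28.7% of all 14192 genes tested, with 20.5% higher against 14.1% of all genes and 20.5% lower against 14.6%. Among α- and β-tubulins 6 of 12 tested rose and 1 fell, while among the Ttll, Agbl and Tppp genes 8 of 17 tested fell and 2 rose. The median log2 fold change was 0.06 over the 44 genes and 0.01 over all genes tested. Group values did not overlap, in the higher direction, for 8 of the 44 and for 13.9% of all genes tested. In the lower direction this held for 13 of the 44 and for 14.7% of all genes tested.

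**Figure D2:**
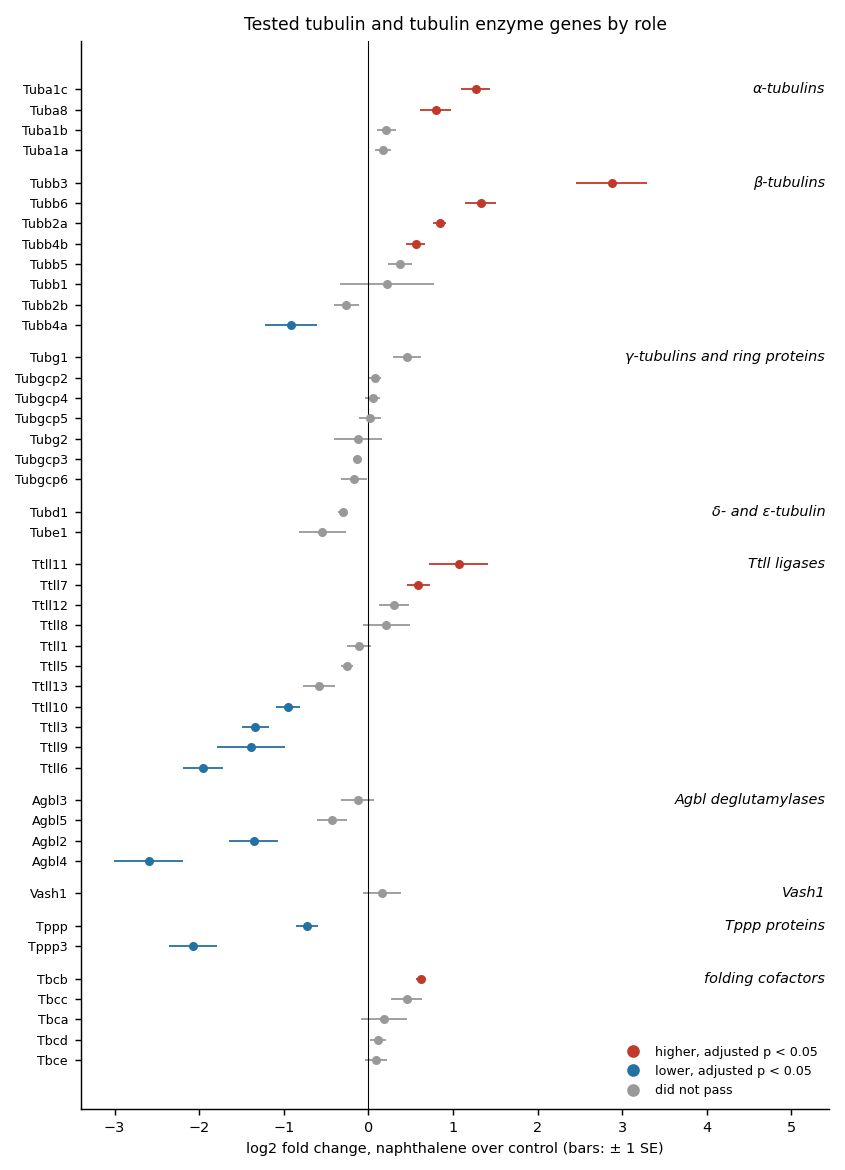
Log2 fold change of naphthalene over control (x axis, bars ± 1 SE) for the 44 tested genes, grouped by role. Red points are higher and blue points lower at an adjusted p under 0.05, and grey points did not pass. The values run from -2.60 for Agbl4 to 2.88 for Tubb3.

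Cilium genes are known targets of RFX factors and FOXJ1. Ttll and Agbl genes made up 6 of the 9 that fell, and whether these factors act on them was not tested. Promoters of 4 of these 6 and of Agbl3 are shown because they hold letters of an RFX motif, and were chosen for that. Those of Ttll6 and Agbl4, which also fell, hold neither motif in the window searched, nor does the other listed start of Ttll3 or of Agbl2. The 150 bases before the transcription start are taken from RefSeq on build GRCm38.p6, in the direction of the gene. Capitals mark the RFX half-site GTTGCC or its reverse complement, and in Ttll10 also the forkhead core TGTTTAC.
Ttll9, chr2:152962335-152962484, plus strand: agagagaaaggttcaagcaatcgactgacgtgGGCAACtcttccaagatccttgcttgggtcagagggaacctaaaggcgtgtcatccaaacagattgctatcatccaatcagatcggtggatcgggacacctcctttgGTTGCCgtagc
Ttll10, chr4:156050818-156050967, minus strand: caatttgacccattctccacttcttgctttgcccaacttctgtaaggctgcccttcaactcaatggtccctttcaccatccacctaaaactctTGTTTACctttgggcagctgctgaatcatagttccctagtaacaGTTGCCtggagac
Ttll3, chr6:113392313-113392462, plus strand: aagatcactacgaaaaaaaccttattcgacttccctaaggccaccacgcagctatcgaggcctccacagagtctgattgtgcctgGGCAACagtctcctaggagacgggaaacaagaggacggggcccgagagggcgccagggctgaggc
Agbl2, chr2:90782577-90782726, plus strand: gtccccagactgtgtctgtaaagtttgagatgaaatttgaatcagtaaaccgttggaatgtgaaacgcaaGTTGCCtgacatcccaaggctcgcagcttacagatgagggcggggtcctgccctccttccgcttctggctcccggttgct
Agbl3, chr6:34780282-34780431, plus strand: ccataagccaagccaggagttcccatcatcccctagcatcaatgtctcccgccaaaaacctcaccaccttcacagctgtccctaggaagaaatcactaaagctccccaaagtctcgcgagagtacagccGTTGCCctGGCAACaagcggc

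In the Ttll9 promoter the half-sites begin 118 and 11 bases before the start, and in Ttll10 the half-site begins 13 bases before it, with the forkhead core at 57. In Ttll3 and Agbl2 the half-site begins 65 and 80 bases before the start. In Agbl3, which did not pass the test, half-sites at 21 and 13 bases stand in opposite orientation, 2 bases apart. In none of these 5 stretches did one motif overlap another. In the whole window of 300 bases, which runs from 250 before to 50 after the start, 46 of the 53 genes had an entry. A half-site on either strand stood in 4 of 8 promoters of genes that fell (Tppp3 had no entry), in 2 of 7 of genes that rose (Tuba8 and Tuba1c) and in 4 of 22 of genes that did not pass, against 14.1% of all 27025 genes with a promoter in the table. The forkhead core stood in 1, 0 and 2 of these promoters, against 4.05% of all. Some genes have more than 1 listed start, and a gene was counted where any start had the letters. In Tuba8 and Tuba1c, which rose and are not printed, the half-site begins 36 and 145 bases before the start. These counts cover few genes and a short motif, and a role of RFX factors or FOXJ1 was not tested.

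The α-tubulin genes differed in their response. Tuba1a and Tuba1b, the widely expressed α-tubulin genes, gave most α-tubulin transcripts in both groups. Tuba1a had 226, 227, 195 and 199 CPM in naphthalene lungs, against 169, 208, 176 and 199 CPM in control lungs. The groups overlapped and the gene did not pass (log2 fold change 0.17, SE 0.09, adjusted p = 0.213). Tuba1b had 126 ± 14.5 CPM after naphthalene and 108 ± 11.9 CPM in controls and did not pass (log2 fold change 0.21, adjusted p = 0.173).

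Tuba1c, a near copy of these, had 39.7, 52.1, 70.4 and 49.4 CPM in naphthalene lungs, against 21.3, 23.3, 21.4 and 21.6 CPM in control lungs. Every naphthalene value lay above every control value (log2 fold change 1.27, SE 0.17, adjusted p = 0.000224). Tuba8, a divergent α-tubulin best known from muscle and testis, had 14.0, 18.1, 18.7 and 23.2 CPM in naphthalene lungs, against 11.9, 10.7, 11.4 and 8.45 CPM in control lungs, again without overlap (log2 fold change 0.80, SE 0.18, adjusted p = 0.00526). The other α-tubulin genes with reads were too low to test: Tuba3a, Tuba3b and Tubal3 had at most 10 counts in any library.

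The copies of Tuba1 limit how far these values can be separated. Of the 50-base words in Tuba1c transcripts, 51.7% also occur in Tuba1b or Tuba1a, and the corresponding shares were 52.0% for Tuba1a and 58.4% for Tuba1b. Words that also occur in genes outside the set made up 49.2% for Tuba1c, 71.3% for Tuba1a and 64.0% for Tuba1b. How reads that map to several places were counted is not given in the sources used here. With Tuba1a, Tuba1b and Tuba1c summed as 1 feature the log2 fold change was 0.30 (adjusted p = 0.0329). This sum includes Tuba1c, which passed alone, while Tuba1a and Tuba1b did not. It is therefore no separate test, and it leaves the words shared with genes outside the set unresolved. Tuba8 shares 0.181% of its words with the set.

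Most β-tubulin genes that passed were higher. Tubb4b, the β-tubulin that predominates in cilia and is also widely expressed, had 266, 317, 327 and 267 CPM in naphthalene lungs, against 180.5, 194, 193 and 232 CPM in control lungs. The groups did not overlap (log2 fold change 0.56, SE 0.11, adjusted p = 0.00373). Of its 50-base words 37.8% occur in transcripts of genes outside the set, and 0 in another gene of the set.

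Tubb2a, a β-tubulin abundant in neurons and present in many tissues, had 68.0, 71.7, 79.8 and 65.7 CPM in naphthalene lungs, against 38.6, 43.0, 36.4 and 40.8 CPM in control lungs. It was higher in 4 of 4 naphthalene libraries than in any control (log2 fold change 0.84, SE 0.08, adjusted p = 0.000149). Its close copy Tubb2b stayed low, at 2.14 ± 0.227 CPM after naphthalene and 2.55 ± 0.469 CPM in controls, and did not pass (adjusted p = 0.409). Of the 50-base words of Tubb2a, 45.6% occur in other genes of the set and 19.5% in genes outside it. For Tubb2b these shares were 31.3% and 16.2%, which limits how far the 2 can be separated. Tubb6, a β-tubulin of low level in most resting tissues, had 40.6, 43.1, 39.7 and 27.0 CPM in naphthalene lungs, against 13.4, 13.5, 18.3 and 14.9 CPM in control lungs. These groups were also separate (log2 fold change 1.33, SE 0.18, adjusted p = 0.000217).

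Tubb3, the β-tubulin used as a neuronal marker, was scarce but higher after naphthalene. It had 37, 29, 20 and 14 counts in naphthalene libraries, against 2, 8, 1 and 1 counts in control libraries. That is 1.78 ± 0.383 CPM after naphthalene and 0.230 ± 0.239 CPM in controls, with 3 of 4 controls below the floor of 3 counts. The log2 fold change was 2.88 (SE 0.42, adjusted p = 0.00144), and 3.92 without control 2. Summed over libraries the ratio was 7.70, with an exact 95% interval of 4.22 to 15.4 that covers counting error only. Markers of neurons and neuroendocrine cells moved with it. Of 4 tested markers, 3 were higher, or 75% against 14.1% of all genes tested. Their log2 fold changes were 2.99 for Uchl1, 2.21 for Calca and 3.28 for Prph. The 9 listed markers summed to 26.2 to 34.5 CPM after naphthalene and 7.71 to 8.42 CPM in controls. None of the 9 was at 0 in all libraries. The part of these cells in the Tubb3 value was not tested.

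Tubb4a, a β-tubulin of brain and ciliated cells, was the only tested α- or β-tubulin gene to pass in the lower direction. It had 7.14, 8.41, 3.25 and 4.76 CPM in naphthalene lungs, against 11.7, 12.4, 9.58 and 11.2 CPM in control lungs. The groups did not overlap (log2 fold change -0.91, SE 0.31, adjusted p = 0.018), but the call was lost without control 2 (adjusted p = 0.0546). Tubb5, the general β-tubulin of dividing and resting cells, had 289.9, 277, 209 and 203 CPM in naphthalene lungs, against 187, 209, 170.0 and 190.0 CPM in control lungs, and lay just outside the threshold (log2 fold change 0.37, SE 0.15, adjusted p = 0.0515). Tubb5 passed as higher without naphthalene 3 or 4 and with DESeq2. Tubb1, the β-tubulin of megakaryocytes and platelets, spread widely at 12.2 ± 6.85 CPM after naphthalene and 10.5 ± 3.63 CPM in controls (adjusted p = 0.708). Of 7 tested megakaryocyte and platelet markers 1 fell, or 14.3%, near the 14.6% of all genes tested that fell. It was Gp1ba (log2 fold change -0.53, adjusted p = 0.0304), a call lost without naphthalene 2 or 4 or any 1 control. The 8 listed summed to 33.2 to 71.6 CPM after naphthalene and 27.2 to 46.0 CPM in controls.

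**Figure D3:**
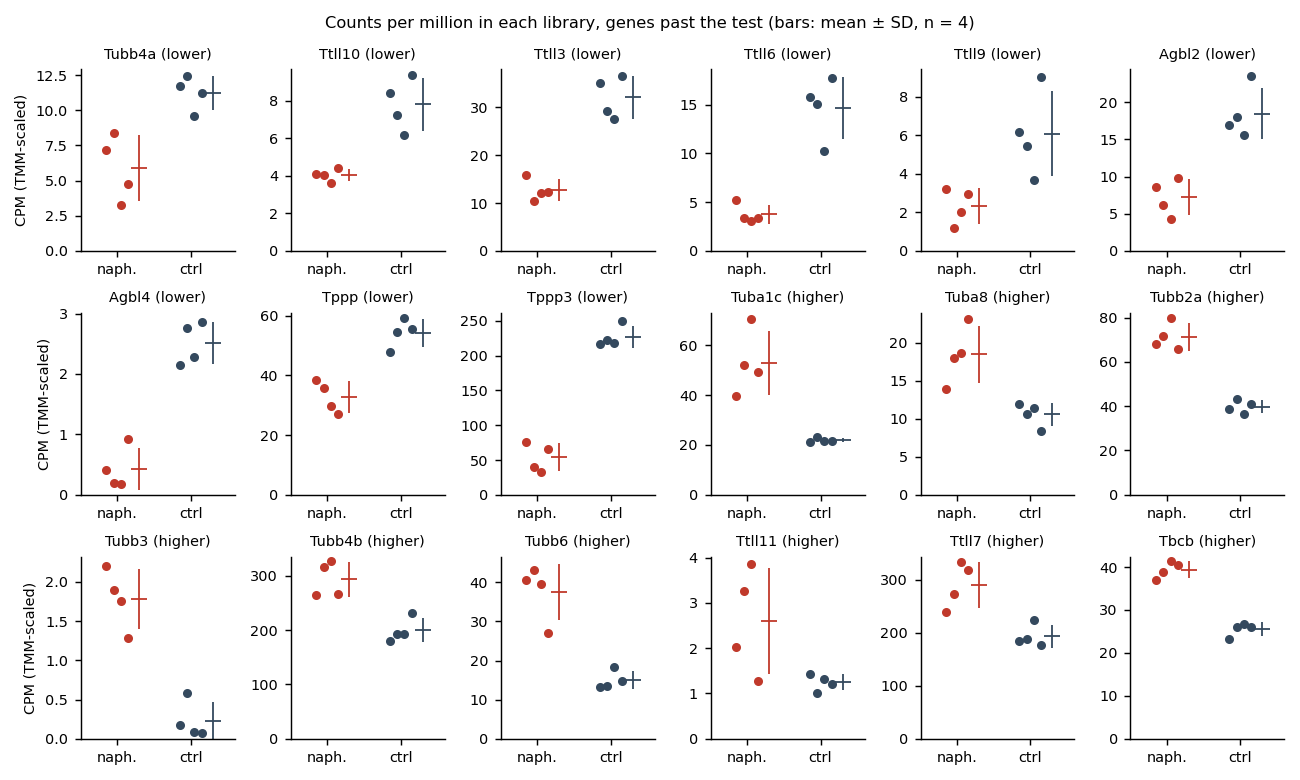
CPM in each library (y axis, from 0, a different scale in each panel) for the 18 genes that passed, with naphthalene libraries in red on the left and control libraries in dark blue on the right. Bars give mean ± SD over 4 mice. The 9 genes that fell come first, and only Ttll11 among the 18 has naphthalene and control values that overlap. Over all genes tested, 28.6% had no overlap between the groups.

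Per kilobase of exon, the summed α-tubulin level was 224.9 ± 5.65 CPM per kb in naphthalene lungs and 182.5 ± 15.6 CPM per kb in control lungs. The summed β-tubulin level was 355.4 ± 35.2 CPM per kb in naphthalene lungs and 243.4 ± 17.4 CPM per kb in control lungs. The α-tubulin sums ran from 217.7 to 231.5 after naphthalene and from 166.3 to 199.5 in controls, and the β-tubulin sums from 306.5 to 386.7 after naphthalene and from 226.0 to 265.5 in controls, so neither overlapped. Tuba4a is missing from the α-tubulin sum.

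Within the β-tubulin sum, Tubb4b held 51.9% ± 3.67 in naphthalene lungs and 51.3% ± 2.57 in control lungs, with overlap between the groups, although its level differed. Tubb5 held 26.0% ± 4.06 after naphthalene and 29.35% ± 2.46 in controls, with overlap. Tubb2a held 12.5% ± 0.918 after naphthalene and 10.15% ± 0.629 in controls, and Tubb6 held 5.98% ± 0.671 after naphthalene and 3.52% ± 0.627 in controls, both without overlap. Tubb4a held 0.742% ± 0.263 after naphthalene and 2.08% ± 0.245 in controls, also without overlap. Within the α-tubulin sum, Tuba1c held 11.9% ± 3.20 after naphthalene and 6.08% ± 0.360 in controls, while Tuba1a held 52.2% ± 3.36 after naphthalene and 57.1% ± 1.98 in controls, with overlap. These shares and sums are descriptions without a test.

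**Figure D4:**
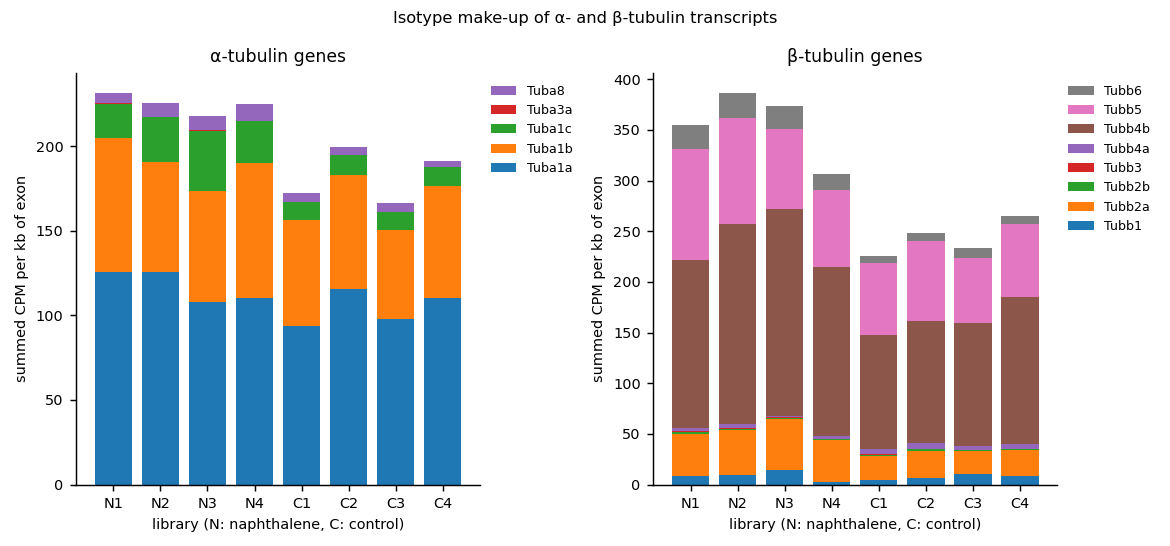
Summed level of the α-tubulin genes (left) and β-tubulin genes (right) in CPM per kb of exon (y axis), stacked by gene, for naphthalene libraries N1 to N4 and control libraries C1 to C4. Genes under 0.5 CPM per kb in every library are left out. The α-tubulin bars reach 217.7 to 231.5 after naphthalene and 166.3 to 199.5 in controls.

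None of the 7 genes of the nucleating ring passed by edgeR, with 1, Tubg1, at an unadjusted p under 0.05. Over all genes tested 28.7% passed. Tubg1 passed without naphthalene 4 and with limma voom with quality weights, and Tubgcp6 passed with naphthalene 1 and control 3 left out together. Over all genes these fits called 4429, 6503 and 5349, in that order, against 4075 in the main fit. Tubg1, the main γ-tubulin, had 11.7 ± 2.59 CPM in naphthalene lungs and 8.57 ± 0.457 CPM in control lungs (log2 fold change 0.46, adjusted p = 0.0607), and Tubg2 had 1.26 ± 0.381 CPM after naphthalene and 1.41 ± 0.400 CPM in controls. The complex proteins Tubgcp2 to Tubgcp6, which hold γ-tubulin in the ring, had log2 fold changes of -0.17 to 0.08. Tubgcp3, the highest of them per kilobase, had 69.5, 73.3, 69.5 and 75.4 CPM in naphthalene lungs, against 76.6, 77.3, 77.6 and 85.1 CPM in control lungs, without overlap but short of the threshold (log2 fold change -0.14, SE 0.05, adjusted p = 0.221). Of 6 tested ring partners, such as Mzt1 and Pcnt, 0 passed by edgeR and 0 had an unadjusted p under 0.05. Without naphthalene 1, 1 of them rose and 1 fell, and limma voom with quality weights called 1 lower. Nedd1, which anchors the ring and had the smallest p, had 40.3, 47.6, 62.2 and 49.9 CPM in naphthalene lungs, against 39.3, 42.4, 47.4 and 38.7 CPM in control lungs, with overlap (adjusted p = 0.179).

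Tubd1 and Tube1, the δ- and ε-tubulins needed for the triplet microtubules of centrioles and basal bodies, did not pass. Tubd1 had 11.4, 12.7, 11.8 and 11.6 CPM in naphthalene lungs, against 13.2, 14.8, 15.2 and 15.4 CPM in control lungs, without overlap (log2 fold change -0.30, SE 0.06, adjusted p = 0.0633). Tube1 had 2.48 ± 0.900 CPM after naphthalene and 3.64 ± 0.497 CPM in controls (log2 fold change -0.54, adjusted p = 0.160), and it passed as lower without naphthalene 1 and with limma voom with quality weights. Tubd1 passed as lower with upper quartile scaling.

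Among the Ttll ligases, 4 of 11 tested fell and 2 rose, or 36.4% and 18.2%, against 14.6% and 14.1% of all genes tested. Those that fell included both a glycine initiator and the glycine elongator. Ttll3, which starts glycine chains on axonemal tubulin, had 16.0, 10.4, 12.04 and 12.3 CPM in naphthalene lungs, against 35.1, 29.2, 27.5 and 36.7 CPM in control lungs. The lowest control was above every naphthalene value (log2 fold change -1.34, SE 0.16, adjusted p = 0.000142). Ttll10, which lengthens glycine chains in the mouse, had 4.11, 4.04, 3.60 and 4.40 CPM in naphthalene lungs, against 8.43, 7.26, 6.15 and 9.38 CPM in control lungs, also without overlap (log2 fold change -0.95, SE 0.14, adjusted p = 0.00249). Ttll8, the other glycine initiator, had 3.97 ± 1.16 CPM after naphthalene and 3.39 ± 0.901 CPM in controls and did not pass (adjusted p = 0.589).

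The glutamate ligases split. Ttll6, which lengthens glutamate chains in cilia, had 5.18, 3.33, 3.08 and 3.39 CPM in naphthalene lungs, against 15.8, 15.02, 10.2 and 17.7 CPM in control lungs. The groups were far apart (log2 fold change -1.95, SE 0.24, adjusted p = 0.000132). Ttll9, a glutamate ligase of motile cilia and sperm flagella, had 3.21, 1.17, 2.02 and 2.93 CPM in naphthalene lungs, against 6.19, 5.44, 3.69 and 9.02 CPM in control lungs. It fell without overlap but with a wide error (log2 fold change -1.39, SE 0.40, adjusted p = 0.0108).

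Ttll7, a β-tubulin glutamate ligase described mostly in neurons, went the other way and was the most abundant Ttll gene per kilobase. It had 239, 272, 334 and 318 CPM in naphthalene lungs, against 183, 188, 225 and 177 CPM in control lungs, without overlap (log2 fold change 0.59, SE 0.13, adjusted p = 0.0049). Per kilobase of exon its level was 39.2 CPM per kb after naphthalene and 26.1 CPM per kb in controls, and the means of the other tested Ttll genes ranged from 0.684 to 5.05 CPM per kb after naphthalene and from 0.393 to 7.95 CPM per kb in controls. Ttll11, a glutamate elongator, had 2.02, 3.26, 3.87 and 1.28 CPM in naphthalene lungs, against 1.43, 1.02, 1.32 and 1.22 CPM in control lungs. It passed as higher although the groups overlapped (log2 fold change 1.07, SE 0.35, adjusted p = 0.0376). That call was lost without naphthalene 2 or 3 and without any 1 of the 4 controls (adjusted p 0.0645 to 0.111), and with limma voom.

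The remaining tested ligases did not pass. Ttll1, the catalytic subunit of a polyglutamylase complex, had 7.57 ± 1.45 CPM after naphthalene and 8.23 ± 0.642 CPM in controls (adjusted p = 0.638). Ttll5, a glutamate initiator of α-tubulin, had 40.5 ± 2.01 CPM after naphthalene and 48.3 ± 4.08 CPM in controls, without overlap (adjusted p = 0.0652). Ttll13, a glutamate ligase, had 2.06 ± 0.477 CPM after naphthalene and 3.10 ± 0.449 CPM in controls, also without overlap (adjusted p = 0.0842). Ttll12, a family member without a settled ligase activity, had 19.1 ± 3.95 CPM after naphthalene and 15.5 ± 1.52 CPM in controls. Ttll2 had at most 4 counts in any library and was not tested.

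Of the Agbl genes, whose products trim glutamates from tubulin tails, 2 of 4 tested fell and 0 rose. Over all genes tested 14.6% fell. Agbl2, which shortens long glutamate chains, had 8.63, 6.20, 4.31 and 9.80 CPM in naphthalene lungs, against 16.9, 18.0, 15.6 and 23.5 CPM in control lungs. Each naphthalene value was below each control value (log2 fold change -1.35, SE 0.29, adjusted p = 0.0015). Agbl4, with a similar activity, had 7, 3, 2 and 10 counts in naphthalene libraries, against 24, 38, 26 and 40 counts in control libraries, so the drop rests on few reads. Its log2 fold change was -2.60 (SE 0.41, adjusted p = 0.000896), and the ratio of summed counts was 0.159 with an exact 95% interval of 0.0961 to 0.251 that covers counting error only, not the spread between mice.

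Agbl5, which removes the branch-point glutamate, had 31.7, 26.3, 25.7 and 23.8 CPM in naphthalene lungs, against 41.5, 34.9, 26.6 and 41.9 CPM in control lungs, and did not pass (log2 fold change -0.43, SE 0.18, adjusted p = 0.0553). It passed as lower without naphthalene 1, without control 3 and without both (log2 fold change -0.64, adjusted p = 0.002). Agbl3 had 22.5 ± 6.34 CPM after naphthalene and 24.4 ± 1.52 CPM in controls (adjusted p = 0.621), and Agbl1 had at most 15 counts in any library and was not tested. Vash1, the tested detyrosinating vasohibin, had 24.4, 19.5, 15.02 and 12.9 CPM in naphthalene lungs, against 18.3, 17.1, 13.5 and 15.8 CPM in control lungs, with overlap and no call (adjusted p = 0.559).

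Both tested Tppp genes fell. Tppp3, a microtubule-bundling protein abundant in multiciliated cells, had 75.8, 40.1, 33.5 and 65.7 CPM in naphthalene lungs, against 217, 222, 218 and 250.2 CPM in control lungs. This was the smallest adjusted p of the 44 tested genes, with a wide gap between groups (log2 fold change -2.08, SE 0.28, adjusted p = 0.000107). Tppp, the founding member known from oligodendrocytes, had 38.4, 35.8, 29.7 and 27.1 CPM in naphthalene lungs, against 47.7, 54.4, 59.1 and 55.5 CPM in control lungs, without overlap (log2 fold change -0.72, SE 0.13, adjusted p = 0.00168). Tppp2, known from testis, had 1 count in all.

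Of the 5 folding cofactors, which assemble the α- and β-tubulin pair, Tbcb rose. This is 20% of them, against 14.1% higher over all genes tested. Tbcb, which takes up newly folded α-tubulin, had 36.9, 38.7, 41.4 and 40.5 CPM in naphthalene lungs, against 23.3, 26.1, 26.8 and 26.1 CPM in control lungs. The spread within each group was small and the groups were separate (log2 fold change 0.62, SE 0.06, adjusted p = 0.000762). Polr2i lies on the opposite strand over 23.0% of its exon bases and was itself higher (log2 fold change 0.46, adjusted p = 0.0433), and the strand setting of the counting is not given in the sources used here. Tbcd, which takes up β-tubulin, had 68.7, 79.3, 75.7 and 62.6 CPM in naphthalene lungs, against 68.8, 63.9, 59.8 and 72.3 CPM in control lungs (log2 fold change 0.11, SE 0.10, adjusted p = 0.432). Tbca, Tbcc and Tbce also did not pass, with log2 fold changes of 0.09 to 0.46.

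Genes acting before the cofactors in tubulin folding were mostly higher. Of 17 tested genes for prefoldin, the CCT chaperonin and related factors, 11 rose and 1 fell. This is 64.7% higher, against 14.1% of all genes tested. Their median log2 fold change was 0.44, against 0.01 over all genes tested. Cct3, a chaperonin subunit, had 139 ± 22.1 CPM in naphthalene lungs and 81.7 ± 6.04 CPM in control lungs (log2 fold change 0.77, SE 0.12, adjusted p = 0.000817). Cct6a, another subunit, had 214 ± 36.0 CPM after naphthalene and 129.98 ± 8.86 CPM in controls (adjusted p = 0.00143). The gene that fell was Tbcel, a relative of Tbce that destabilises tubulin, with 75.9 ± 4.85 CPM after naphthalene and 107 ± 6.34 CPM in controls (adjusted p = 0.00156). Without naphthalene 3, control 1 or control 4 the number that rose was 7. Over all genes these fits called 3014, 3042 and 2929, in that order, against 4075 in the main fit. Pfdn2 and Pdcl3, on chromosome 1, are listed at 0.

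Of 14 tested tubulin-modifying genes outside the symbol families, 2 fell and 1 rose, which is 21.4% called against 28.7% of all genes tested. Atat1, the α-tubulin acetyltransferase, had 9.74 ± 1.39 CPM in naphthalene lungs and 14.3 ± 1.47 CPM in control lungs (log2 fold change -0.55, SE 0.13, adjusted p = 0.0134). Ccsap, a spindle and cilium protein linked to tubulin glutamylation, had 3.13 ± 0.471 CPM after naphthalene and 4.91 ± 0.915 CPM in controls (adjusted p = 0.0393), and Matcap2, a relative of the detyrosinase gene Matcap1, was higher, with 16.5 ± 1.57 CPM after naphthalene and 13.0 ± 0.692 CPM in controls (adjusted p = 0.0425). The number that fell was 1 without naphthalene 2, 3 or 4 or control 1, 3 or 4, and the number that rose was 0 without naphthalene 1 or 3 or any 1 control. Ttl, which restores the last tyrosine, Agtpbp1, the main deglutamylase of neurons, and Svbp, the partner of the vasohibins, did not pass.

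Of 9 tested severing genes 2 fell, or 22.2% called against the same 28.7%: Fign, with 12.5 ± 1.97 CPM after naphthalene and 23.7 ± 1.92 CPM in controls (adjusted p = 0.000521), and the katanin gene Katnal2, with 1.43 ± 0.945 CPM after naphthalene and 3.41 ± 0.834 CPM in controls (adjusted p = 0.0439). Without naphthalene 1 the number that fell was 4, and it was 1 without control 1, 2 or 4 or naphthalene 2, 3 or 4. Over all genes the fit without naphthalene 1 called 5058 and the others named called 2929 to 4429, against 4075 in the main fit. Of 29 tested microtubule-associated and plus-end genes 4 rose and 3 fell, or 13.8% and 10.3%, no higher than the 14.1% and 14.6% over all genes tested. Dclk1, a microtubule-binding kinase, had 29.3 ± 3.60 CPM after naphthalene and 15.3 ± 2.61 CPM in controls (adjusted p = 0.001), and Map6, which stabilises microtubules, had 53.4 ± 9.45 CPM after naphthalene and 35.3 ± 2.16 CPM in controls (adjusted p = 0.00626). Eml5 was lower, with 51.5 ± 5.63 CPM after naphthalene and 75.1 ± 3.41 CPM in controls (adjusted p = 0.00209). The counts in this list came to 2 higher without control 1, 2 or 4 or naphthalene 2 or 3, to 6 lower without naphthalene 1 and to 1 lower without control 1.

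Genes of proteins that line the inside of ciliary doublet microtubules were lower. Of 17 tested, 10 fell and 0 rose, with a median log2 fold change of -1.04. This is 58.8% lower, against 14.6% of all genes tested. Enkur had 2.71 ± 0.519 CPM in naphthalene lungs and 14.1 ± 1.75 CPM in control lungs (log2 fold change -2.37, SE 0.16, adjusted p = 1.61e-05), and Cfap141 had 10.5 ± 3.06 CPM after naphthalene and 43.9 ± 8.48 CPM in controls (log2 fold change -2.07). Cfap161 had 1.63 ± 0.592 CPM after naphthalene and 8.49 ± 3.35 CPM in controls (log2 fold change -2.37). Cfap45 and Nme7, on chromosome 1, and Tektip1 are listed at 0.

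Markers of multiciliated cells were lower, as were several but not all genes of the set known from cilia. Of 16 tested markers 15 fell, or 93.8% against 14.6% of all genes tested. Among them were the axonemal genes Hydin (log2 fold change -2.64) and Ak7 (-2.11) and the surface marker Cdhr3 (-2.72). All 16 markers summed to 166.8 to 290.9 CPM in naphthalene lungs and 811.6 to 1258 CPM in control lungs, with none at 0. Their median log2 fold change was -2.13, beside -2.08 for Tppp3, -1.95 for Ttll6, -1.39 for Ttll9, -1.35 for Agbl2, -1.34 for Ttll3 and -0.91 for Tubb4a. Tubb4b, the main β-tubulin of cilia, was higher (log2 fold change 0.56), and the glycine initiator Ttll8 did not pass (log2 fold change 0.21). In bulk RNA, fewer cells of a type and less RNA per cell cannot be told apart. The marker that did not pass was Foxj1, the transcription factor of motile cilia (32.7 ± 20.9 CPM after naphthalene and 52.8 ± 15.8 CPM in controls). Its highest naphthalene value, 62.5 CPM, was in naphthalene 1. All 16 markers, Foxj1 included, passed as lower without that library and with limma voom with quality weights. The same held with naphthalene 1 and control 3 left out together. Over all genes these fits called 5058, 6503 and 5349, in that order, against 4075 in the main fit. Of 11 tested markers of cycling cells, which use Tubb5, Tuba1b and Tuba1c in the spindle, 5 fell and 0 rose. This is 45.5% lower, against 14.6% of all genes tested. Kif11, Cdk1 and Top2a led, with log2 fold changes of -1.24, -1.21 and -1.06. The 12 listed summed to 41.4 to 75.6 CPM after naphthalene and 80.9 to 124.6 CPM in controls. Cenpf, on chromosome 1, is listed at 0. Fits without control 2 gave 2 lower cycling markers, and fits without control 3 or naphthalene 2 gave 3. Over all genes these fits called 2945, 3807 and 2942, in that order, against 4075 in the main fit. The part of these cell types in the tubulin gene values was not tested.

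Markers of club cells, lymphocytes and cardiac muscle were read for comparison, beside 14.6% of all genes tested that fell and 14.1% that rose. Club cell markers fell in 4 of 5 tested, Cyp2f2 among them (log2 fold change -2.62), and the 5 summed to 1922 to 4090.3 CPM after naphthalene and 5908 to 11552 CPM in controls. Lymphocyte markers fell in 9 of 9 tested (30.4 to 49.8 CPM after naphthalene and 99.4 to 137.2 CPM in controls, summed). Cardiac muscle markers, from the sleeves of pulmonary veins, passed in 0 of 4 tested by edgeR, with 1, Actc1, at an unadjusted p under 0.05 and 0 called by DESeq2 or limma, and spread over 139.5 to 275.4 CPM after naphthalene and 86.7 to 360.5 CPM in controls. Tnnt2, on chromosome 1, is listed at 0.

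**Figure D5:**
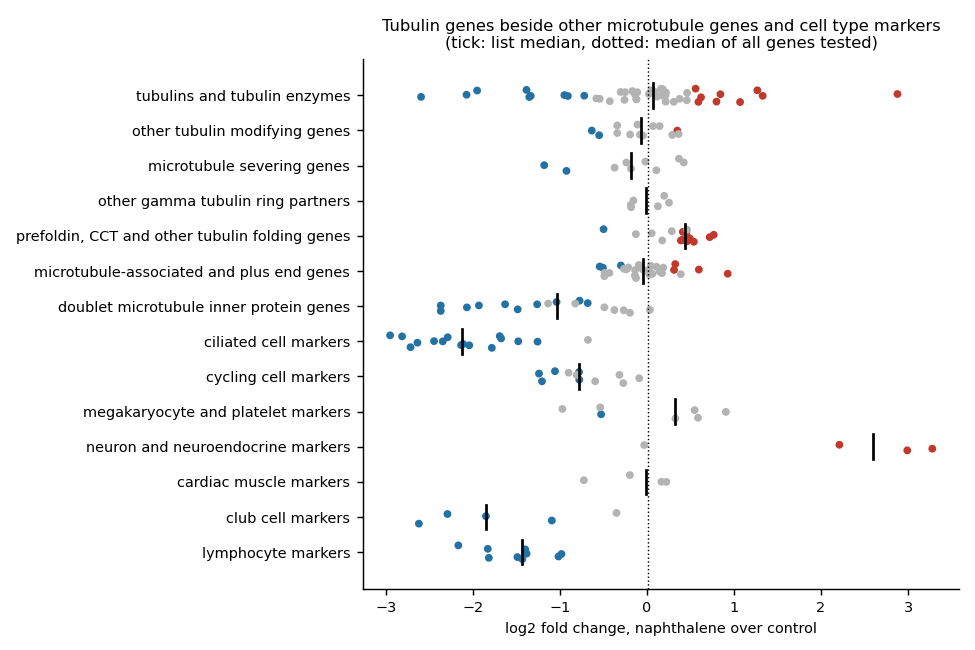
Log2 fold change of naphthalene over control (x axis) for each tested gene of the tubulin set (top), of the other microtubule gene lists and of the cell type marker lists. Red points are higher and blue points lower at an adjusted p under 0.05, a tick gives each list's median and the dotted line the median of all genes tested. The medians are 0.06 for the tubulin set, 0.44 for the folding genes, -1.04 for the doublet genes and -2.13 for the ciliated cell markers.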

How the data were processed

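The authors deposited raw read counts for each gene symbol. The submitters' processing notes name the build mm39 and, with neither role nor order, edgeR 4.2.1, featureCounts 2.0.6, HISAT2 2.2.1 and Trim Galore 0.6.7, and the labels' protocols name a stranded total RNA kit. The annotation, the strand setting and the treatment of reads mapping to several places were not given in those sources.

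All 8 columns matched a mouse by name, leaving 0 others. The whole table was fitted in R 4.3.3 with edgeR 4.0.16 (TMM scaling, filterByExpr with a minimum count of 10 and a minimum total of 15, quasi-likelihood test, group alone, Benjamini-Hochberg, threshold 0.05), after a check on simulated data. SE is that of the difference between mean log2 CPM, prior count 2. Exon lengths, 50-base words and overlaps came from GENCODE M21 and chromosomes and promoters from RefSeq, on GRCm38.

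The genes, lists and tests were chosen with earlier results of these data known. By rule, full values are given for genes past the threshold and for the gene of highest CPM in each class, and from other lists up to 3 genes past the threshold with the smallest p. Replicate pairs differed beyond sampling noise (chi-square over its degrees of freedom 5.72 to 51.3). Alternatives were RLE or upper quartile scaling, other filters (none, or a CPM of 1 in 4 libraries), DESeq2 1.42.0, and limma 3.58.1 voom with or without quality weights. Others were a replicate block, libraries left out, and related genes summed. The sums were Tuba1a with Tuba1b and Tuba1c, Tuba3a with Tuba3b, Tubb2a with Tubb2b, Tubb4a with Tubb4b, and Tubg1 with Tubg2. Protein sequences were not used here.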

Additional observations from a re-analysis of the deposited data

Results flagged for a closer look

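In 88 groups of 4 values (44 tested genes, naphthalene and control), 5 had 1 library far from the other 3 on Dixon's criterion, and chance flags about 1 in 20. Ttll6 in naphthalene 1 was at 5.178 CPM, against 3.08 to 3.39 CPM in the other naphthalene libraries, and still below every control. Tppp3 in control 4 was at 250.2 CPM, against 217 to 222 CPM in the other controls. Tuba1c in control 2 was at 23.29 CPM, against 21.3 to 21.6 CPM. Tubgcp3 in control 4 was at 85.08 CPM, against 76.6 to 77.6 CPM. Tube1 in control 2 was at 2.903 CPM, against 3.85 to 3.95 CPM.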

How the results depend on the processing

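Of the 18 genes that passed, 16 kept their direction and call under each of the 18 alternatives run. For Tuba1c, Tubb2a and Tubb4b the alternative with related genes summed scored the sum, so it does not test the gene alone. The Tuba1c value there was 0.30, against 1.27 for the gene itself. The exceptions were Ttll11, whose log2 fold change ran from 0.84 to 1.28 over single libraries left out and which also missed the threshold with limma voom (adjusted p = 0.0674) and with the replicate block (adjusted p = 0.0512), and Tubb4a, which missed it without control 2. Summed with Tubb4b, Tubb4a had a log2 fold change of 0.51, which the more abundant Tubb4b sets by construction. The genes higher numbered 8 to 13 and those lower 8 to 11 over single libraries left out. Vash1, not called, ran from -0.025 without naphthalene 1 to 0.29 in those fits and was at -0.10 without naphthalene 1 and control 3 together. Of the 26 genes that did not pass, 10 passed under some alternative, most often Agbl5 (7 of 18) and Tubb5 (6 of 18). Tuba1a was counted there only as the sum with Tuba1b and Tuba1c. Other microtubule genes called higher numbered 16, and 9 to 16 over single libraries left out. Those called lower numbered 18, and 15 to 25 in the same fits. Their shares are given list by list above, and over all genes tested 14.1% rose and 14.6% fell. Calls over all genes ran from 2929 to 5058 in those fits. Same-numbered libraries correlated weakly, at -0.0934 to 0.287, in their deviations from group means. For 2 of 4 naphthalene libraries the same-numbered control correlated best, so these values cannot exclude a pairing by number. With the replicate block 10 genes were higher and 10 lower, and all 16 ciliated cell markers passed as lower. Over all genes that fit called 4363, against 4075 in the main fit. Depth limits the genes with few reads, above all Tubb3, Agbl4 and Ttll11.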

Other observations

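Tuba3a and Tuba3b, α-tubulins known from testis, were too low to test but had opposite counts. Tuba3a had 9, 6, 9 and 4 counts in naphthalene libraries, against 3, 2, 1 and 1 counts in control libraries. Tuba3b had 0, 1, 0 and 0 counts in naphthalene libraries, against 3, 2, 2 and 10 counts in control libraries. The genes share 27.4% to 32.4% of their 50-base words with each other and with Tuba8.

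Tubb4a and Tubb4b, closely related β-tubulin genes, passed in opposite directions. Tubb4a stood at 2.69%, 2.65%, 0.994% and 1.78% of the Tubb4b CPM in naphthalene lungs, against 6.51%, 6.40%, 4.96% and 4.84% in control lungs. This ratio within a library does not depend on the scaling between libraries, and the highest naphthalene value lay below the lowest control value. The pair shares none of its 50-base words with each other.

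Ccn6, which overlaps 3.04% of the exon bases of Tube1 on the opposite strand, was lower (3.18 CPM after naphthalene and 7.82 CPM in controls, adjusted p = 0.00383). B3galnt2, which overlaps 17.5% of those of Tbce, was higher (87.9 CPM after naphthalene and 67.8 CPM in controls, adjusted p = 0.0142).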
